A study of Mus musculus with 9 samples.

Results

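The miRNA repertoire of untreated mouse lung was read from 3 arrays, 1 for each of 3 mice that the labels call the control group, out of 9 lung arrays in the series. Each array carried probes for 1881 mouse miRNAs, and 304 of these (16.2%) were detected on all 3 control arrays by the detection mark that the scanner software wrote for each miRNA. Per the labels, the control mice received no named treatment, control 1 was male, and controls 2 and 3 were female; strain and age are not given in the sources used here. The other 6 arrays came from 3 mice given D-galactose and sodium nitrite for 42 days (model) and 3 mice given Codonopsis pilosula at 15 g per kg for 30 days (codonopsis). They are used below only to set the scale and to count detections, and no comparison between groups was made.

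Total RNA was labelled at its 3′ end with the dye Cy3 and hybridised to single-colour Agilent arrays. The deposited processed intensity, in which background and spatial trends had been subtracted, was reduced to 1 value per miRNA by taking the mean of the spots for each probe, followed by the mean of the probes. A level in this text is the log2 of that signal after division by the array's 75th percentile, taken over the 289 miRNAs detected on all 9 arrays, so that 0 is the 75th percentile itself. Signals under 0.00391 of the percentile were set to −8, and levels at −8 have no order among themselves. A share is the percent of the summed positive signal of all 1881 miRNAs on the same array. Probes differ in sequence, and different miRNAs may label and hybridise with different efficiency, so levels, shares and differences between the arms of a hairpin order signals and do not count molecules. For 140 of the 291 detected miRNAs whose probes could be compared, the brightest probe gave over 2 times the signal of the dimmest.

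The 75th percentile was 244.54 intensity units on control 1, 538.24 on control 2 and 434.44 on control 3. Detection was marked for 484, 448 and 375 miRNAs in the same order, although control 1 had the lowest percentile. All 3 arrays lay on 1 slide that held no array of the other groups. No spot was saturated. Control 1 stood apart from the other control arrays. Across the 304 detected miRNAs, Pearson's r was 0.992 between controls 2 and 3, against 0.900 between controls 1 and 2 and 0.889 between controls 1 and 3, which describes points that share their arrays. Control 1 is also the male mouse, so that sex and this single array cannot be told apart. Values are therefore given for each array or as a mean with its SD. The number of detected miRNAs and the counts of hairpins with both arms detected are also given without control 1. Most other counts rest on all 3 arrays.

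MicroRNAs are cut from hairpin precursors by the enzymes Drosha and Dicer, which leaves a short duplex of the 5′ arm (5p) and the 3′ arm (3p). One strand of the duplex is usually loaded into an Argonaute protein and the other is degraded, and this choice is called strand selection. The loaded strand finds its target mRNAs mainly through its seed, the bases 2 to 8 from its 5′ end, so miRNAs with a shared seed are grouped as a family. Lung tissue mixes endothelium, epithelium, smooth muscle, fibroblasts, leukocytes and blood, and several miRNAs are known to be largely restricted to one of these.

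The sequences below belong to the miRNAs with the highest signal, and they are shown because their seeds define the families described next. They are printed 5′ to 3′ from RefSeq (assembly GRCm38.p6), where 1608 of the 1881 miRNAs (85.5%) and 251 of the 304 detected ones (82.6%) matched by name. Capitals mark the seed. Those whose seed had 1 member among the matched sequences come first. The mature miR-6366 lies at chr16:18165093-18165114 on the minus strand and miR-3963 at chr3:151023839-151023857 on the minus strand, and neither lies within the span of an annotated protein-coding gene or lncRNA. The locus of miR-126a-3p is chr2:26591402-26591423 on the plus strand, within the span of the endothelial gene Egfl7. The locus of miR-451a is chr11:78073186-78073207 on the plus strand, outside annotated gene spans, and that of miR-5100 is chr11:60728698-60728718 on the plus strand, within the span of Mief2. The locus of miR-23a-3p is chr8:84208563-84208583 on the plus strand. The spans do not tell exon from intron.
miR-6366: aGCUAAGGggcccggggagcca
miR-3963: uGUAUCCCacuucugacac
miR-126a-3p: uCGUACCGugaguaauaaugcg
miR-451a: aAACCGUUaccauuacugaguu
miR-5100: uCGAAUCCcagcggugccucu
miR-23a-3p: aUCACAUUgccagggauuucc

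The next sequences share the let-7 seed GAGGUAG, and they are shown because the members differ by only 1 to 4 bases outside or before it, which limits how far probes can separate them. Positions are counted from 1 at the 5′ end of let-7a-5p, whose base is given first. Relative to let-7a-5p, let-7c-5p carried A19G, let-7f-5p carried G12A and let-7e-5p carried U9G. The changes were A17G and A19G in let-7b-5p, U1A and U16C in let-7d-5p, and G12U and U18C in let-7g-5p. They were G12U, A17G, U18C and A19U in let-7i-5p, and G11A and A19U in miR-98-5p. The shorter let-7k, of 19 bases, carried U9G, A17G and A19G. The copy of let-7a-5p in the table used lies at chr13:48538239-48538260 on the minus strand, and let-7f-5p has copies at chr13:48537889-48537910 on the minus strand and at chrX:151912353-151912374 on the plus strand, the latter within the span of Huwe1. The array cannot tell copies of identical sequence apart.
let-7a-5p: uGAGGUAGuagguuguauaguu
let-7b-5p: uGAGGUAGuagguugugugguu
let-7c-5p: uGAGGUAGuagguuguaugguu
let-7d-5p: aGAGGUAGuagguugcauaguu
let-7e-5p: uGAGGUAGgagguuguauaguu
let-7f-5p: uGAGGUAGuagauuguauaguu
let-7g-5p: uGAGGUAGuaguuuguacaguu
let-7i-5p: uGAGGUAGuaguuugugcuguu
let-7k: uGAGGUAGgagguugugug
miR-98-5p: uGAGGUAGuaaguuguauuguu

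Signal was concentrated in few miRNAs. The 10 brightest held 63.0% of the summed signal on control 1, 53.1% on control 2 and 55.2% on control 3, and the 30 brightest held 79.3%, 78.7% and 79.8%. With miR-6366, miR-3963 and miR-5100 left out of the list and of the total, the 10 brightest held 42.6%, 45.9% and 46.1%. Control 1 was then the lowest of the 3 arrays. On each array, 31 or 32 miRNAs made up 80% of the signal. The 304 detected miRNAs together held 95.6% on control 1 and 99.0% and 99.4% on controls 2 and 3. The same 8 miRNAs stood among the 10 brightest of all 3 arrays and the same 28 among the 30 brightest, so the membership of the top varied less between mice than the order within it. Of the 30 brightest by mean level, 28 were also among the 30 brightest of each of the other 6 arrays.

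**Figure D1:**
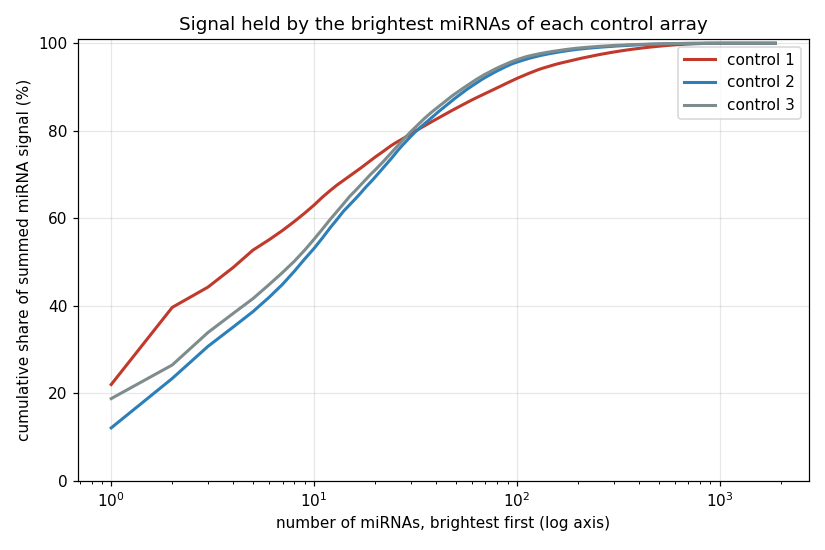
Cumulative share of the summed miRNA signal (percent, vertical axis) against the number of miRNAs counted from the brightest (log axis), 1 line for each control array. All lines pass 80% by 32 miRNAs, and control 1 starts highest, at 22.0% for its brightest miRNA.

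The 2 brightest entries were late-numbered ones. The level of miR-6366 was 7.10 on control 1, 6.29 on control 2 and 6.97 on control 3, a share of 17.6%, 12.1% and 18.8%. The level of miR-3963 was 7.42, 6.19 and 5.63 in the same order, a share of 22.0%, 11.3% and 7.42%. Thus miR-3963 led on control 1 and miR-6366 on controls 2 and 3, and the level of miR-3963 varied between mice with an SD of 0.91 against a median of 0.307 for all detected miRNAs. At rank 6, miR-5100 stood at 4.93, 3.90 and 4.10, and its brightest probe exceeded its dimmest by 3.38 on the log2 scale. These 3 entries together held 43.6% of the signal on control 1, 25.7% on control 2 and 28.8% on control 3.

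A stretch of 6 bases, AUCCCA, occurred in miR-3963, miR-5100 and the dimmer miR-3968, whose level was 1.76, 0.91 and 1.70 and whose brightest probe exceeded its dimmest by 7.96 on the log2 scale. The motif was searched on the strand of the mature miRNA only, after these entries had been seen to be bright, and 7 of the 1608 sequences (0.435%) hold it, of which these 3 were detected on all arrays. The 7-base stretch CGAAUCC, the seed of miR-5100, was found in miR-5100 and miR-3968 alone among the 1608 sequences (0.124%). In the sequences below, capitals mark AUCCCA in place of the seed. The locus of miR-3968 is chr11:115447969-115447989 on the minus strand.
miR-3963: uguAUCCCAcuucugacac
miR-5100: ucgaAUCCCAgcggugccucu
miR-3968: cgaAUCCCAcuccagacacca

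The brightest miRNA with a known cellular home was miR-126a-3p, an endothelial miRNA that sustains growth factor signalling and vessel integrity. Its level was 5.17 on control 1, 5.57 on control 2 and 5.68 on control 3 (5.47 ± 0.27, SD, n = 3). Its rank was 3, 3 and 2, with a share of 4.63%, 7.33% and 7.69%. Next came miR-451a, the main miRNA of red blood cells, whose precursor is cut by Argonaute2 without Dicer. Its rank was 4 on all 3 arrays, at levels of 5.13, 4.84 and 4.87, and its share of 4.52%, 4.44% and 4.38% (4.45% ± 0.066) differed little between the mice. When the 3 late-numbered entries were left out of the total, the share of miR-126a-3p became 8.21%, 9.87% and 10.8% and that of miR-451a 8.01%, 5.97% and 6.16%.

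The remaining ranks of the first 10 were held by let-7a-5p, let-7f-5p and let-7c-5p, which restrain growth-promoting genes, by miR-26a-5p, known to target Ezh2, and by miR-23a-3p, which is made together with miR-27a and miR-24. The level of let-7a-5p was 4.19 on control 1, 4.50 on control 2 and 4.49 on control 3. For let-7f-5p it was 3.99, 4.39 and 4.41. Control 1 was the lowest of the 3 for both, and the other arrays lay close together. The level of let-7c-5p was 4.06, 4.28 and 4.22, and that of miR-26a-5p was 3.82, 4.27 and 4.09. The closest agreement in this group was for miR-23a-3p, at 3.81, 3.95 and 3.95. The means of let-7a-5p (4.39 ± 0.17, SD, n = 3), miR-5100 (4.31 ± 0.55), let-7f-5p (4.27 ± 0.24) and let-7c-5p (4.19 ± 0.11) lay closer to each other than the spread of the widest of them. On each array let-7a-5p was above let-7f-5p and let-7c-5p, while every other order among these miRNAs changed between arrays and is not resolved. The probes of let-7a-5p, let-7f-5p and let-7c-5p differed by 1.20, 1.73 and 1.37 on the log2 scale. Their repeated order is therefore one of signal and does not resolve which is the most abundant.

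Ranks 11 to 20 were taken by let-7b-5p, miR-29a-3p, miR-24-3p, miR-30a-5p, let-7i-5p, miR-21a-5p, let-7g-5p, let-7d-5p, miR-125b-5p and miR-23b-3p, with mean levels from 3.90 down to 2.72. The collagen-targeting miR-29a-3p stood at 3.33 on control 1, 4.18 on control 2 and 4.04 on control 3. The injury-responsive miR-21a-5p, whose locus chr11:86584120-86584141 on the minus strand lies within the span of Vmp1, stood at 2.71, 2.88 and 3.48. Control 1 was the lowest array for both, and control 3 was the highest for miR-21a-5p. The level of miR-125b-5p, the mammalian relative of the worm lin-4, was 2.80, 3.11 and 2.93, and its brightest probe exceeded its dimmest by 3.46 on the log2 scale. Ranks 21 to 30 were taken by miR-27a-3p, miR-22-3p, miR-29c-3p, miR-130a-3p, miR-16-5p, miR-29b-3p, miR-26b-5p, miR-195a-5p, miR-15a-5p and miR-199a-3p, with mean levels from 2.64 down to 1.90. The next miRNAs outside the list, miR-30b-5p (1.88 ± 0.34, SD, n = 3) and miR-30c-5p (1.86 ± 0.30), lay within the spread of miR-199a-3p (1.90 ± 0.38).

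**Figure D2:**
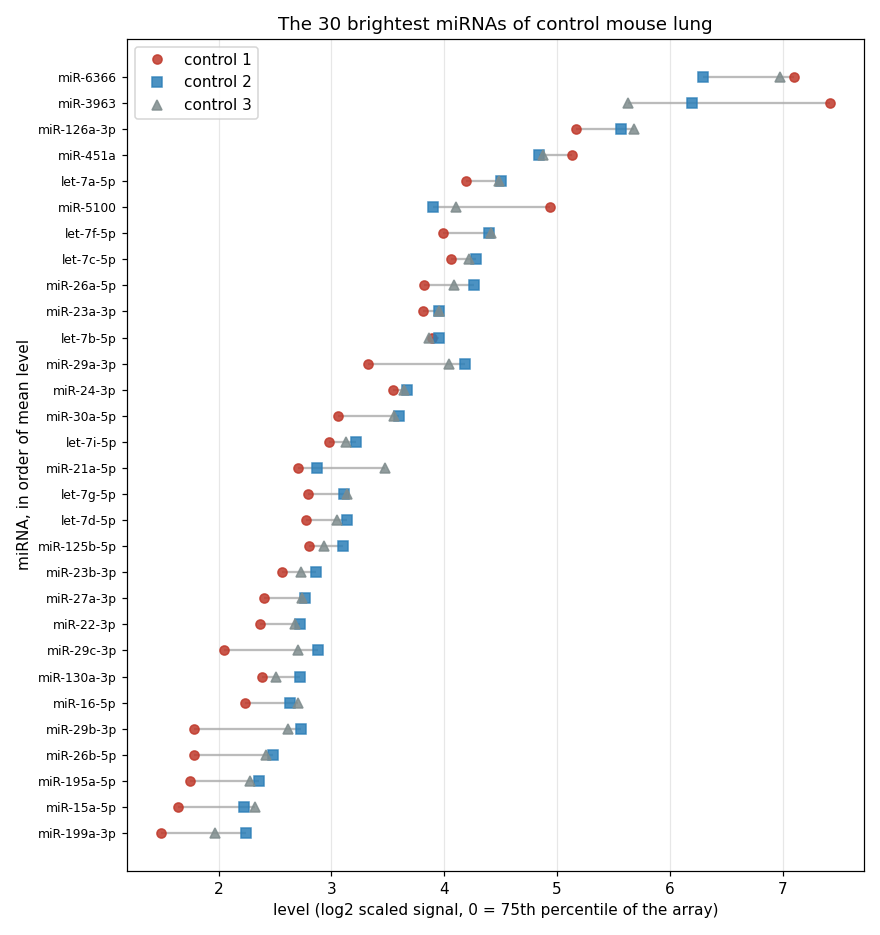
Levels (log2 scaled signal, horizontal axis, 0 is the 75th percentile of the array) of the 30 brightest miRNAs in order of mean level, with 1 point for each control array and a grey line over their range. Control 1 lies above controls 2 and 3 for miR-6366, miR-3963, miR-451a and miR-5100 and below both for most of the rest.

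Most of the brightest miRNAs carried early registry numbers, which were given to the first and mostly conserved miRNAs. Of the 616 miRNAs numbered below 500, let-7 included, 191 (31.0%) were detected on all 3 arrays, and they held 48.9% of the signal on control 1, 70.1% on control 2 and 67.3% on control 3. The detected share fell to 32 of 203 (15.8%) for numbers from 500 to below 1000, 15 of 121 (12.4%) from 1000 to below 2000, and 21 of 159 (13.2%) from 2000 to below 5000. Of the 782 numbered 5000 and above, 45 (5.75%) were detected. Yet miR-6366 and miR-5100 lie in this last class, which held 24.4%, 15.8% and 22.4% of the signal. Among the 30 brightest, 27 were numbered below 500.

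Base composition differed along the order of signal. The median GC content was 40.9% over the 29 of the 30 brightest miRNAs with a matched sequence, 50.0% over the detected miRNAs, and 52.4% over those detected on no control array. Among detected miRNAs it was 45.5% for numbers below 500 and 63.6% for 5000 and above. The first base was U in 22 of the 29 brightest (75.9%), in 45.8% of the detected and in 38.8% of those detected on no control array, and no sequence among the 29 began with G. Many of the 29 belong to shared families, such as let-7 and miR-29, whose members have similar 5′ ends, so they are not independent sequences. A first base U is known to favour loading into Argonaute. Within the numbers below 500, U came first in 52.2% of the detected miRNAs and in 28.1% of the others.

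By shared seed, the let-7 family was the most signal-rich family with more than 1 detected member. Its 10 detected members of 11 on the array held 11.6% of the signal on control 1, 16.7% on control 2 and 15.8% on control 3 (14.7% ± 2.76, SD, n = 3). The one entry with this seed that was not detected on all 3 arrays was miR-1961. The members spanned a wide range. The mean level was 4.39 for let-7a-5p, 3.90 for let-7b-5p, 3.10 for let-7i-5p, 3.02 for let-7g-5p and 2.99 for let-7d-5p, then 1.19 for let-7e-5p, −1.37 for miR-98-5p and −5.59 for let-7k. Without the 3 late-numbered entries in the total, the family held 20.5%, 22.5% and 22.2%, and the arrays differed less.

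Other families followed at lower shares. All 3 members of the miR-29 family (seed AGCACCA), which target collagens and other matrix genes, were detected and held 2.27% on control 1, 4.97% on control 2 and 4.36% on control 3. Of the 10 entries with the seed AGCAGCA of miR-15 and miR-16, regulators of the cell cycle, 6 were detected and held 2.19%, 3.89% and 3.92%. Both members of the miR-26 family (UCAAGUA) held 2.27%, 3.84% and 3.35%. The share on control 1 was the lowest in all of these families. With the seed GUAAACA of miR-30, miR-30a-5p, miR-30c-5p and miR-30e-5p held 1.61%, 2.83% and 2.60%. With miR-30b-5p and miR-30d-5p added by name, the 5 members of this family, abundant in many epithelia, held 2.18%, 3.76% and 3.52%. The 12 leading seeds also included those of miR-24-3p, with a mean share of 1.78%, and miR-23a-3p, with 2.18%. Its relative by name, miR-23b-3p, had no matched sequence and is not in that share, and it held a mean of 0.961%.

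Family members printed below are those of miR-29, shown because they share the seed and because 2 loci each carry a pair of them. Outside the seed, miR-29a-3p differs from miR-29c-3p only just past it, and miR-29b-3p differs from miR-29c-3p near the 3′ end. The locus of miR-29a-3p is chr6:31062673-31062694 on the minus strand, beside a copy of miR-29b-3p at chr6:31063025-31063047. The other copy of miR-29b-3p is at chr1:195037091-195037113 on the plus strand beside miR-29c-3p at chr1:195037600-195037621, both within the span of the lncRNA A330023F24Rik. The levels of miR-29b-3p were 1.78, 2.73 and 2.61, those of miR-29c-3p 2.05, 2.88 and 2.71, and control 1 was the lowest for both. Capitals mark the seed.
miR-29a-3p: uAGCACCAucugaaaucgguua
miR-29b-3p: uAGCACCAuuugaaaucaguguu
miR-29c-3p: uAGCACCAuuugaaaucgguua

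A detected member often came without some of its seed relatives, beside 16.2% of all 1881 miRNAs detected. Entries without a matched sequence are not counted here. The 251 detected miRNAs with a matched sequence carried 200 of the 1347 seeds on the array. Of 59 seeds that had 2 or more entries on the array and at least 1 detected, 17 had every entry detected, and 28 had 2 or more detected members, which together made 79 miRNAs. Relatives of bright miRNAs could miss the mark. For the seed of miR-24-3p, the entries not detected on all 3 arrays were miR-5124b, miR-6369, miR-6410 and miR-6413, and for that of miR-15 and miR-16 they were miR-195b, miR-6342, miR-6353 and miR-6419.

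Strand choice was read from 723 hairpins that had both a 5p and a 3p entry of the same name on the array. Neither arm was detected on all 3 arrays for 529 hairpins, the 5p arm alone for 94, the 3p arm alone for 71, and both for 29. Among the 165 hairpins with 1 arm detected, which are these 94 and 71, the partner was marked on no control array for 117. By name, 143 of 775 5p entries (18.5%) and 115 of 785 3p entries (14.6%) were detected, and 46 of 321 entries without an arm in the name (14.3%). Of the 30 brightest miRNAs, 15 were 5p arms, 11 were 3p arms and 4 had no arm in the name.

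The partners of the brightest arms were mostly dim. Of 18 with a partner of the same name on the array, the partner was marked on no array for 8, on 1 array for 2, on 2 arrays for 1 and on 3 arrays for 7. The 5p partners of miR-23b-3p, miR-27a-3p and miR-130a-3p were at the floor of −8 on all 3 arrays, beside 3p levels of 2.56, 2.86 and 2.73 for miR-23b-3p. The 5p partner of miR-29a-3p was at the floor on controls 1 and 2 and at −7.81 on control 3. The partners named after single gene copies gave the same picture, with 11 of 15 marked on no array. The exceptions marked on all 3 were miR-24-2-5p, at −3.65, −2.71 and −2.73, and miR-29b-1-5p, at −5.64, −5.87 and −5.47, both more than 6 below their bright partners on every array.

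Where both arms were detected, one arm usually gave far more signal. The median difference between the arms was 3.02 on the log2 scale regardless of direction, and it exceeded 4 for 12 of the 29 hairpins and stayed under 1 for 4. The 5p arm was the brighter on all 3 arrays for 11 hairpins, the 3p arm for 13, and the brighter arm changed between arrays for 5. Without control 1, both arms were detected for 50 hairpins, of which 22 were brighter at 5p and 27 at 3p on both remaining arrays. The counts thus depend on control 1, while neither set favoured one arm strongly.

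On the side of the 3p arm, the hairpin of miR-126a showed the widest difference. Its 5p arm stood at −2.37 on control 1, −2.04 on control 2 and −2.11 on control 3, and 5p minus 3p was −7.54, −7.61 and −7.79 (−7.65 ± 0.13, SD, n = 3). The brightest probe of miR-126a-5p exceeded its dimmest by 4.75 on the log2 scale. The size of this difference thus depends on how the probes are averaged, which the SD between arrays does not cover. For miR-143, the smooth muscle miRNA, 5p minus 3p was −6.53 ± 0.058, with 3p levels of 1.16, 1.20 and 0.83. It was −5.65 ± 0.26 for miR-29c, −5.32 ± 0.16 for miR-22, −4.36 ± 0.13 for the striated muscle hairpin miR-133a and −2.49 ± 0.081 for the erythroid hairpin miR-144. These differences varied between the mice far less than they separated the arms.

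On the side of the 5p arm, 5p minus 3p was 6.09 on control 1, 8.90 on control 2 and 8.98 on control 3 for let-7d. It was 5.99, 7.47 and 7.65 for miR-195a and 4.14, 5.84 and 6.10 for miR-34b. In these hairpins control 1 showed the smallest difference, and its 3p arm was the brightest of the 3 arrays, at −3.31 against −5.76 and −5.93 for let-7d-3p. The difference was steadier for the miR-30 hairpins, at 4.03 ± 0.062 (SD, n = 3) for miR-30a and 3.02 ± 0.041 for miR-30e, and it was 4.90 ± 0.62 for miR-30b. For miR-466i the difference was 0.80, 6.89 and 7.99, the smallest again on control 1. It was 4.68 ± 0.42 for miR-125a, 3.71 ± 0.20 for miR-34c and 2.49 ± 0.099 for miR-532.

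The arms of miR-140, known from cartilage, were nearly level. The 5p arm stood at −0.44 on control 1, −0.17 on control 2 and −0.48 on control 3 and the 3p arm at 0.00, 0.17 and −0.12, so that the 3p arm was the brighter on all arrays by 0.38 ± 0.057 (SD, n = 3; 5p minus 3p of −0.38). Differences larger than this but below the median of 3.02 were seen for miR-542 (−0.91 ± 0.23), miR-1839 (−1.16 ± 0.13), miR-142a (−2.001 ± 0.42) and miR-3102 (1.89 ± 1.2). For miR-669f, 5p minus 3p was −4.56 on control 1 and −1.04 and −0.95 on the other arrays. For miR-7011, miR-7082, miR-7047 and miR-574 the 5p arm was the brighter on controls 2 and 3 and the 3p arm on control 1. The 5p minus 3p difference of miR-574 was −0.028 on control 1 and 4.30 and 4.91 on controls 2 and 3. For miR-466h it was −2.98, −0.28 and 0.33, and here control 3 alone had the brighter 5p arm. In all 5 the 3p arm was brighter on control 1 than on either other array, as for miR-7047-3p at −0.59 against −4.46 and −4.63.

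**Figure D3:**
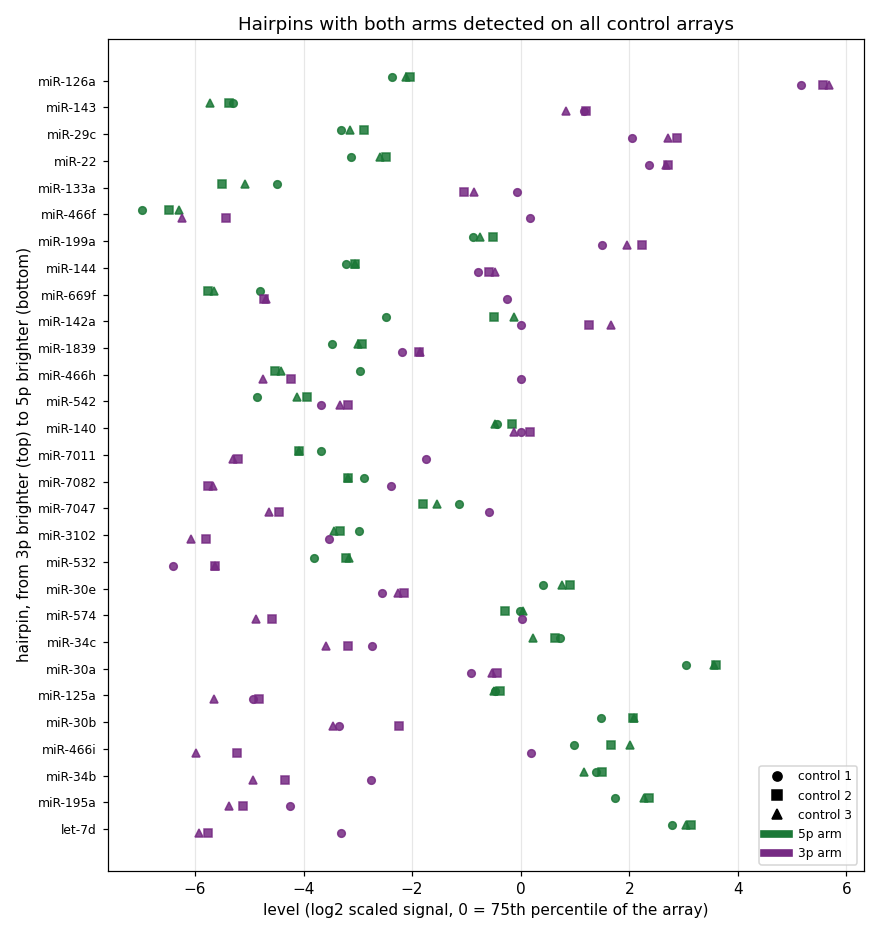
Levels (log2 scaled signal, horizontal axis) of the 5p arm (green) and the 3p arm (purple) of the 29 hairpins with both arms detected, with 1 symbol shape for each control array, ordered by 5p minus 3p. The arms of miR-126a and let-7d lie farthest apart and those of miR-140 nearly coincide, while purple circles of control 1 stand to the right of the other purple points for miR-466f, miR-669f, miR-466h, miR-574 and miR-466i.

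The tissue label was set against miRNAs known to mark cell types. Of 123 listed miRNAs on the array, 94 were detected on all 3 control arrays and 21 on none, beside 16.2% and 68.3% of all 1881. The lists are made of well known miRNAs and were drawn up with earlier results of these data known. Levels of markers do not give cell numbers, since in whole tissue fewer cells of a type and less of the miRNA per cell cannot be told apart.

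Epithelial miRNAs were present throughout. All members of the miR-200 family, which keeps cells epithelial by repressing Zeb1 and Zeb2, were detected. The level of miR-200b-3p was 1.19 on control 1, 1.64 on control 2 and 1.38 on control 3, and that of miR-200a-3p was 0.94, 1.26 and 0.97. The mean level was 0.76 ± 0.14 (SD, n = 3) for miR-200c-3p, 0.29 ± 0.30 for miR-141-3p and 0.23 ± 0.18 for miR-429-3p. The members of the miR-183 cluster, known from sensory epithelia, were dimmer, at −2.10 ± 0.13 for miR-96-5p, −4.93 ± 0.20 for miR-183-5p and −5.10 ± 0.078 for miR-182-5p. The neuroendocrine miR-375-3p stood at −3.35 ± 0.24 and the keratinocyte miRNA miR-203-3p at −3.71 ± 0.36. The basal cell miRNA miR-205-5p was detected on 2 of the 3 arrays, at −4.45, −4.84 and −6.97. The list of 11 held 1.06%, 1.65% and 1.37% of the signal through its 10 detected members.

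Multiciliated cells are marked by the miR-34 and miR-449 families, which share a seed and are needed for ciliogenesis. The level of miR-34b-5p was 1.39 on control 1, 1.497 on control 2 and 1.17 on control 3, and that of miR-34c-5p was 0.73, 0.64 and 0.23. The mean of miR-34a-5p, which p53 induces in many cells, was 0.76 ± 0.17 (SD, n = 3). The level of miR-449a-5p was −1.64, −2.38 and −2.84, in which control 1 was the highest and control 3 the lowest. In contrast, miR-449b and miR-449c-5p, whose hairpins belong to the same cluster as miR-449a, were at the floor on all 3 arrays and were detected on none of the 9.

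Mesenchymal and muscle miRNAs were graded. The smooth muscle miRNA miR-143-3p stood at 1.06 ± 0.20 (SD, n = 3) and its cluster partner miR-145a-5p at −1.24, −1.73 and −2.06. The fibroblast-rich miR-199a-3p reached 1.49, 2.24 and 1.97, miR-199b-5p 1.38 ± 0.29 and miR-214-3p −2.17 ± 0.13. Of 7 heart and striated muscle miRNAs, 3 were detected on all arrays. The level of miR-1a-3p was 0.81, 0.40 and 0.69, that of miR-133b-3p 0.62, −0.32 and −0.11, and that of miR-133a-3p −0.07, −1.05 and −0.86, and control 1 was the highest for all 3. The cardiac myosin miRNA miR-208b-3p was marked on 2 arrays at −5.71, −4.46 and −4.58, miR-206-3p of skeletal muscle on 2 arrays, and miR-208a-3p and miR-499-5p on none.

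The share of the erythroid list was steady between the mice, whereas that of the myeloid list was not. This steadiness depends on the total, since without the 3 late-numbered entries the share of miR-451a was 8.01%, 5.97% and 6.16%. The level of miR-486a-5p had an SD of 0.42. The erythroid list gave nearly the same share on the 3 arrays, at 4.67%, 4.60% and 4.56%, most of it from miR-451a, while miR-144-3p from the same cluster stood at −0.79, −0.58 and −0.47 and miR-486a-5p at −1.05, −1.85 and −1.69. The myeloid miR-223-3p was at 0.11 on control 1, 0.72 on control 2 and 2.45 on control 3, and its 5p arm was at the floor on all arrays. For the pan-leukocyte miR-142a-3p the level was 0.00, 1.25 and 1.66. Control 1 was the lowest and control 3 the highest for both, and the share of the myeloid and leukocyte list ran from 0.291% to 0.732% and 1.43% over the same arrays.

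Among lymphocyte miRNAs, miR-150-5p stood at −2.43 on control 1, −1.01 on control 2 and −0.97 on control 3, and miR-342-3p at −1.52, −0.08 and −0.45. Both were lowest on control 1 by over 1. Yet miR-181a-5p (−0.18 ± 0.13, SD, n = 3) and miR-181b-5p (−2.41 ± 0.093), which are also known in other cells, differed little between the mice. The inflammatory miRNAs miR-146a-5p, a brake on NF-kB signalling, at −0.53, −0.10 and 0.66, and miR-155-5p, at −4.40, −3.96 and −3.74, had the same order over the arrays as miR-223-3p. That order was not particular to them, since miR-126a-3p, miR-16-5p and let-7g-5p had it too. As scaled here, 73 of the 100 brightest miRNAs were lowest on control 1. The difference between control 1 and the others in these lists was measured on 1 mouse, and its source was not tested.

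Of 20 miRNAs known from other organs, 14 were detected on no control array and 5 on all 3, shares near those of all miRNAs on the array (68.3% and 16.2%), so the count says nothing particular about them. Among the 14 were the neuronal miR-124-3p, miR-9-5p, miR-129-5p and miR-137-3p, the pancreatic miR-216a-5p, miR-216b-5p and miR-217-5p, and the embryonic stem cell miRNAs miR-302a-3p, miR-302b-3p, miR-302d-3p, miR-290a-5p and miR-295-3p. The hepatic miR-122-5p was marked on 1 array, at −4.55, −7.92 and −7.17. The 5 were miR-192-5p at −2.60 ± 0.087 (SD, n = 3), miR-194-5p at −2.83 ± 0.28, miR-128-3p at −2.98 ± 0.23, miR-7a-5p at −3.91 ± 0.60 and miR-294-3p at −5.17 ± 0.97. These 5 together held 0.067% to 0.085% of the signal. The hairpin of miR-294-3p lies in the same cluster as those of miR-290a-5p and miR-295-3p, which were detected on no control array. The organ and cell names above thus do not mean that every listed miRNA of that kind was undetected.

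**Figure D4:**
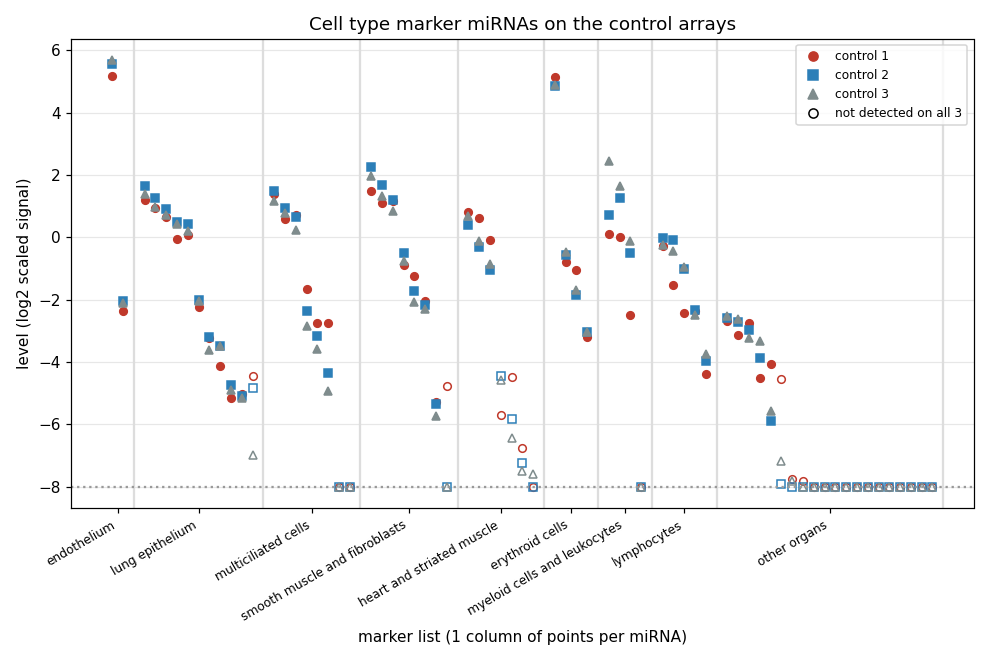
Levels (log2 scaled signal, vertical axis) of cell type marker miRNAs grouped by list, 1 column of points for each miRNA and 1 colour and shape for each control array. Open symbols were not detected on all 3 arrays, and the dotted line is the floor at −8, where most miRNAs of other organs lie.

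Detection on no control array was the commonest state. It applied to 1285 of the 1881 miRNAs (68.3%), while 189 were marked on 1 array and 103 on 2. Of the 189, 142 were marked on control 1, 43 on control 2 and 4 on control 3. Conversely, 65 miRNAs were missed on control 1 alone, 36 on control 3 alone and 2 on control 2 alone. Without control 1, 369 miRNAs were detected on both remaining arrays in place of 304.

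The border of detection was gradual. The dimmest detected miRNAs were miR-466f-5p at −6.97, −6.48 and −6.28, miR-377-3p at a mean of −6.05, miR-532-3p at −5.88, miR-29b-1-5p at −5.66 and let-7k at −5.59. The brightest not detected on all 3 were miR-376c-3p at −2.24, −1.61 and −6.20, miR-3063-3p at −2.22, −1.33 and −6.80, miR-340-5p at −4.64, −3.45 and −2.75, miR-1943-3p at −0.83, −5.58 and −6.05, and miR-7212-3p at −3.08, −1.63 and −7.85. In 3 of these 5 it was control 3 that fell away, and each of the 5 was detected on at least 5 of the other 6 arrays of the series.

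Of the 304 detected miRNAs, 289 were also detected on all other 6 arrays and none was missed on all of them. Of the 1285 detected on no control array, 1231 were detected on none of the 9. A further 54 were marked on at least 1 model or codonopsis array, and 1 of them, miR-466a-5p, on all 6. Its control levels of −8, −7.19 and −6.50 lay near the floor. Since the control arrays shared a slide with no other group, these counts cannot tell the slide from the group.

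Hairpins that neighbour each other in the genome are often transcribed together. Hairpins within 10 kb on the same strand formed 70 clusters, of which 45 had a detected member, and 96 of the 251 placed detected miRNAs lay in a cluster. The miR-17 to miR-92 cluster, a driver of proliferation, lies at chr14:115043671-115044506 on the plus strand, and each of its 6 hairpins had a detected arm, 6 of 11 mature miRNAs in all. Their mean levels ran from 1.03 for miR-19b-3p through 0.07 for miR-20a-5p and −0.32 for miR-92a-3p to −3.70 for miR-18a-5p and −4.05 for miR-17-3p. The better known arm miR-17-5p stood at −5.90, −5.17 and −5.22 and was marked on 2 arrays, and its probes differed by 3.21 on the log2 scale. Identical copies of miR-19b-3p and miR-92a-3p lie in a further cluster on chromosome X, and the array cannot tell which locus gave their signal.

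The cluster of miR-322, miR-503, miR-542 and miR-450 at chrX:53047997-53054349 on the minus strand had 5 of 11 mature miRNAs detected, led by miR-322-5p, which shares the seed of miR-15 and miR-16, at a mean of 0.96 and followed by miR-450a-5p at −3.07. The cluster of let-7d, let-7f-1 and let-7a-1 at chr13:48536012-48538272 on the minus strand had 4 of 6 detected, and that of miR-23a, miR-27a and miR-24-2 at chr8:84208518-84208921 on the plus strand 4 of 6. In both, the bright arms all had a mean of at least 2.64 and the other detected arm a mean of −3.03 or less. The pair of miR-30c-1 and miR-30e at chr4:120769534-120772697 on the minus strand had all 4 arms detected. At the imprinted Dlk1-Dio3 locus on chromosome 12, a cluster of 36 hairpins at chr12:109709060-109747960 on the plus strand, 4 of 66 mature miRNAs were detected, beside 16.2% of all miRNAs on the array. They were miR-494-3p at 0.31, 0.00 and 0.33, miR-3072-5p, miR-329-3p and miR-377-3p.

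The SD of the level between the 3 mice had a median of 0.307 over the 304 detected miRNAs, with quartiles of 0.189 and 0.518. It depended on the scaling, with a median of 0.675 under quantile normalization, 0.685 in the authors' deposited table and 1.22 when scaled over all miRNAs. As scaled here, it was under 0.2 for 86 miRNAs and over 1 for 34. The steadiest were miR-652-3p at 0.04, 0.06 and 0.01 (SD 0.028), miR-92a-3p at −0.36, −0.29 and −0.30 (SD 0.034), miR-378b at a mean of −2.59 (SD 0.039), miR-7a-1-3p at −4.47 (SD 0.040) and let-7b-5p at 3.90 (SD 0.042). Next were miR-99b-5p, miR-423-5p, miR-6973b-5p, miR-378d and miR-324-5p, all with SDs under 0.06. Steady miRNAs were thus found from bright let-7b-5p down to dim miR-7a-1-3p.

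Control 1 gave most of the spread. For controls 2 and 3 alone the median SD was 0.112 and 4 miRNAs exceeded 1, and of the 34 above 1 over all arrays, 31 were highest on control 1. Control 1 exceeded the mean of controls 2 and 3 by over 1 for 50 miRNAs and fell below it by over 1 for 12. As scaled here, the difference fell from dim to bright miRNAs. With the detected miRNAs divided into 4 sets of 76 by mean level, its median was 0.47 in the dimmest set, 0.30 and −0.15 in the sets between, and −0.32 in the brightest, and 73 of the 100 brightest miRNAs were lowest on control 1. With quantile normalization the direction turned, from −1.34 in the dimmest set to 0 in the brightest, and in the authors' deposited table it ran from −1.57 to −0.12. The 50 and 12 became 24 and 141 with quantile normalization, 25 and 144 in the deposited table, and 18 and 255 when scaled over all miRNAs. These counts include a shift of the whole array, since the median difference over all detected miRNAs was −0.868, −0.92 and −2.02 in the same order. Counted from that median, they were 53 and 43, 56 and 52, and 49 and 12, beside 49 and 12 as scaled here. The median SD of controls 2 and 3 stayed below that of all 3 arrays under each scaling, at 0.107 to 0.190.

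The 10 miRNAs with the largest SD were all highest on control 1. The level of miR-466f-3p was 0.17 on control 1, −5.42 on control 2 and −6.23 on control 3, and that of miR-466i-3p was 0.19, −5.22 and −5.98. The others were miR-466q, miR-574-3p, miR-669p-3p, miR-466h-3p, miR-669f-3p, miR-467f, miR-467a-3p and miR-7047-3p, with control 1 levels from −0.59 to 0.24 and levels under −4.0 on both other arrays. Of the 50 miRNAs over 1 higher on control 1, 17 were entries named miR-297, miR-466, miR-467 or miR-669, large rodent families with repeats of CA and UG, against 6 of the 242 within 1 of the others and none of the 12 lower ones. Under 4 other ways of scaling, miR-466f-3p stayed 3.95 to 5.91 higher on control 1.

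Of these 10, 5 had a matched sequence and 4 of them held CACACA, a stretch found in 12 of all 1608 sequences (0.746%) and in 7 of the 251 detected ones, searched on the mature strand after the entries had been seen. Capitals mark every base that lies in a CACACA of the 4 sequences, overlapping ones included. The loci are chr13:17747552-17747573 (plus strand) for miR-466i-3p, chr3:28419988-28420007 (plus) for miR-466q, chr5:64970364-64970385 (plus) for miR-574-3p and chr11:69635419-69635439 (minus) for miR-467f.
miR-466i-3p: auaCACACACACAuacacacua
miR-466q: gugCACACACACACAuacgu
miR-574-3p: cacgcucaugCACACAcccaca
miR-467f: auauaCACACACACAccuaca

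As scaled here, the 12 miRNAs that were lower on control 1 by over 1 were led by miR-142a-5p, at −2.48 on control 1 against −0.50 and −0.12 on controls 2 and 3. They included miR-223-3p, miR-142a-3p, miR-150-5p and miR-342-3p, so that 5 of the 8 detected miRNAs of the myeloid, leukocyte and lymphocyte lists were among them. The median difference of control 1 from the others was −1.47 over the 3 detected myeloid and leukocyte miRNAs, −0.55 over the 5 lymphocyte ones and 0.84 over the 3 detected striated muscle ones, beside 0.02 over all 304. Each of these lists kept its side of the median of all detected miRNAs with quantile normalization and in the authors' deposited table. The other scalings divide each array by 1 percentile and shift all miRNAs alike, so they could not change the side. The let-7, miR-29, miR-30 and miR-15 families and the list of miR-26 and miR-101 also lay below that median as scaled here, but above it with quantile normalization and in the authors' deposited table. The part of sex was not tested, and with 1 male mouse it cannot be told apart from the animal or the array.

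**Figure D5:**
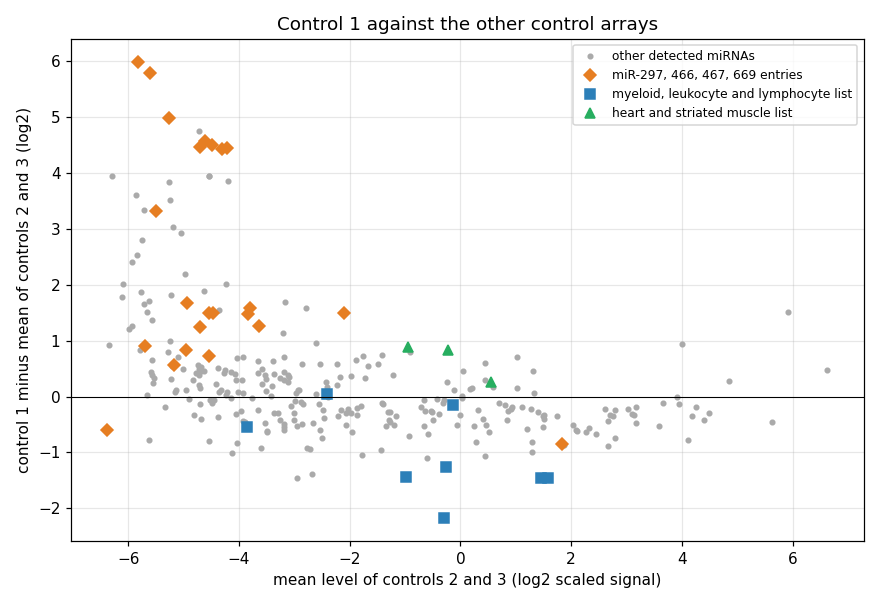
Control 1 minus the mean of controls 2 and 3 (log2, vertical axis) against the mean level of controls 2 and 3 (log2 scaled signal, horizontal axis) for the 304 detected miRNAs. Entries named miR-297, miR-466, miR-467 or miR-669 (orange) reach 5.996 among the dim miRNAs, most of the myeloid, leukocyte and lymphocyte list (blue) lies below 0 and the heart and striated muscle list (green) lies above it.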

How the data were processed

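Lung miRNA of 9 mice was read on single-colour Agilent arrays, and the 3 control arrays were described here. Per the file headers, the deposited processed intensity was written by Agilent Feature Extraction 11.5.1.1 after subtraction of background and spatial trend and was not scaled between arrays; the submitters' processing notes name version 10.10. Per the file headers, each miRNA has a deposited detection mark, and the deposited total intensity is 0.1 where it is not detected. The authors' deposited value table holds log2 values, with 0.000001 where not detected. Both were used as alternatives. Marked spots (3.01% to 3.28%) were left out unless every spot of a probe was marked. Means over spots, then over probes, were divided by the 75th percentile over 289 miRNAs, floored at log2 −8 and logged (Python 3.11.15, pandas 2.3.3, numpy 2.4.6). The negative control spots averaged 2.96 to 3.04 intensity units with SDs from 2.24 to 2.51, and the dimmest detected miRNA gave 1.945 to 2.75. The steps were tested on simulated data. Replicates were numbered in the order of deposition. No group was tested, and 3 mice limit the precision of every SD. The miRNAs named were the 30 brightest, members of 18 lists, both arms of their hairpins, the 10 largest and 10 smallest differences between arms and the pairs whose arm changed, the 10 largest and 10 smallest SDs, 5 on each side of the detection border, the 12 leading seeds and the 5 clusters with most detected members; others stand only as relatives of these or by a count. Members and lists were chosen with earlier results of these data known.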

Additional observations from a re-analysis of the deposited data

How the results depend on the processing

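Of 58 alternatives computed, 51 gave a value close to the reported one and 7 moved it. Closeness was judged loosely for counts, so that 407 or 256 detected miRNAs in place of 304 were called close. Some alternatives could not differ, such as the background-subtracted signal and the detections in the deposited table, which rest on the same mark. The 51 are therefore not a measure of robustness. The number of detected miRNAs, 304 as reported, was 596 with detection on at least 1 array, 407 with at least 2, 256 with signal above the negative controls' mean plus 3 SD, and 306 to 369 with 1 array left out. The 11 hairpins with the brighter 5p arm became 95 where only 1 arm had to be detected, and 11 to 22 with 1 array left out, the most without control 1. The median SD of 0.307 became 1.22 when scaled over all miRNAs, 0.675 with quantile normalization and 0.685 in the authors' deposited table, and 0.112 to 0.329 with 1 array left out, the least without control 1. The cause was not tested. The share of the 10 brightest ran from 52.1% to 59.1%, the let-7 seed led the families with 13.2% to 16.3%, and at least 28 of the 30 brightest stayed so under every alternative computed. With the brightest probe of each miRNA, miR-30b-5p and miR-30c-5p replaced miR-15a-5p and miR-199a-3p. The background-subtracted signal equalled the processed signal, so that alternative changed nothing; median pixel signal minus median background was added after seeing the data. No paired analysis was possible because 1 group was described and no test was made. Signal near the negative controls limits the dim miRNAs, and arms or relatives near the floor have no order.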
